A study of Capra hircus with 9 samples.

Results

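The expression of 10 genes of blood and lymphatic vessels was examined in goat mammary tissue, and the genes were chosen by symbol as the rows of the expression table for VEGFA, VEGFC, ANGPT1, ANGPT2, FLT1, KDR, FLT4, TEK, PECAM1 and CDH5. All 10 were found among the 23499 genes of the table, and all 10 passed the filter on low values, as did 14701 genes in all. The values came from 9 healthy Laoshan dairy goats, a dairy breed, all of parity 3 and with a mean age of 4 years, and each goat gave 1 mammary gland library at slaughter. The stages were late lactation (LL, 240 days postpartum, n = 3), the dry period (DP, 300 days postpartum, n = 3) and late gestation (LG, 140 days after mating, n = 3). The groups carried no treatment and no altered allele. The stages were compared to see how these genes varied when milk secretion had stopped and when the gland was being prepared for the next lactation.

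New vessels grow when vascular endothelial growth factors bind receptor tyrosine kinases on endothelial cells, the cells that line every vessel. VEGFA acts through FLT1 and KDR, whereas VEGFC acts mainly through FLT4, the receptor known for the growth of lymphatic vessels. The angiopoietins ANGPT1 and ANGPT2 bind TEK, with ANGPT1 known for quiet, stable vessels and ANGPT2 for vessels under remodelling, and PECAM1 and CDH5 hold endothelial cells together at their junctions. The mammary gland is known to rebuild its capillary bed with each cycle of pregnancy, lactation and regression.

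Values are FPKM, counts of sequenced fragments set against transcript length and against the mapped fragments of the library. The 10 highest genes held 80.6% to 86.0% of the summed FPKM in LL libraries, against 53.6% to 58.1% in DP libraries and 55.0% to 58.5% in LG libraries. The remaining genes therefore shared a smaller part of the sum in LL, and each library was divided by its own median-ratio factor, from 0.498 to 0.606 for LL, from 1.44 to 1.53 for DP and from 1.20 to 1.31 for LG. "FPKM" below means the deposited value and "scaled FPKM" the value after this division. Without scaling, the median log2 fold change of all genes tested was shifted by 1.09 in DP against LL, by 0.93 in LG against LL and by -0.18 in LG against DP. For the 10 genes, a direction against LL that turned without scaling is therefore stated. For genes of the lists, deposited means are given in places. The 10 luminal epithelial markers summed to 937 to 1188 scaled FPKM in LL libraries, against 387 to 687 for DP and 886.5 to 1052 for LG, and none of them was at 0 in every library, so the markers of the labelled tissue were present. In bulk tissue, fewer cells of a type and less RNA per cell cannot be told apart.

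Fold changes are on the log2(scaled FPKM + 1) scale, which understates the change of genes near 0, and their errors are standard errors (SE). A gene was called when its adjusted p from limma, with Benjamini-Hochberg adjustment over all 14701 genes, was below 0.05 and its log2 fold change was at least 1 in size. "Rose" and "fell" are used for an adjusted p below 0.05 at any size.

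In the dry period against late lactation, FLT4 rose and VEGFA fell on the scaled values, although VEGFA had a change of 0.19 without scaling. These were the 2 members called in DP against LL, 1 in each direction, while 13.8% of all genes tested were called higher and 8.79% lower. ANGPT2, at 0.92, lay just under the size of a call, and its change was 1.93 without scaling. By adjusted p alone, 3 of the 10 members rose (ANGPT2, FLT4 and TEK), beside 28.2% of all genes, and 2 fell (VEGFA and VEGFC, both above 0 without scaling), beside 28.6% of all genes. These shares lay near the background. The median log2 fold change was 0.29 over the members and 0.004 over all genes tested.

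In late gestation against late lactation, 8 members passed the adjusted p, but none at the size of a call. For LG against LL, limma called 0 of the 10 members, with 8 at an unadjusted p below 0.05, beside 10.7% of all genes called higher and 6.61% lower. By adjusted p alone, 3 members rose (ANGPT1, ANGPT2 and KDR), beside 25.6% of all genes, and 5 fell (FLT1, PECAM1, TEK, VEGFA and VEGFC, all 5 above 0 without scaling), beside 24.6%. The median over the members was -0.30, and over all genes 0.02.

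Between the 2 non-lactating stages, FLT4 and TEK were lower in late gestation. They were the 2 members called in LG against DP, both lower, beside 6.88% of all genes called lower. For the other direction, limma called 0 members higher, beside 6.37% of all genes, with 5 members at an unadjusted p below 0.05 in either direction. By adjusted p alone, 3 members fell (FLT4, PECAM1 and TEK) beside 16.4% of all genes, and 0 rose beside 18.4%. The median was -0.33 over the members and 0.008 over all genes. The 3 comparisons share libraries in pairs, so their results are not independent of each other.

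**Figure D1:**
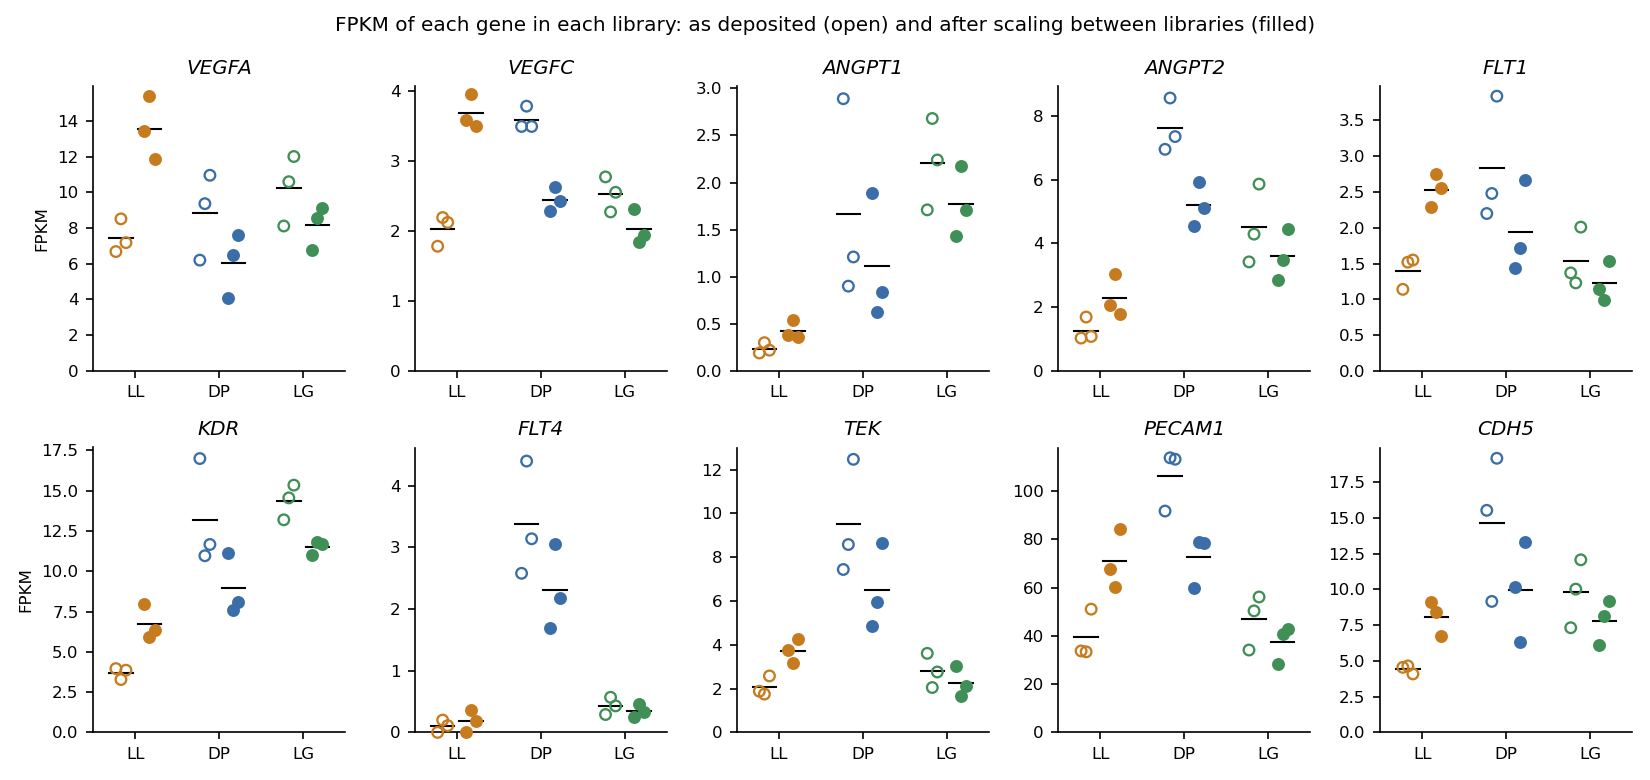
FPKM of the 10 genes in LL, DP and LG libraries (n = 3 each), with open points for deposited values, filled points for scaled values, horizontal bars for stage means and a linear vertical axis of its own for each gene. FLT4 stood at 0.20 FPKM or less in LL and at 2.58 or more in DP, whereas the LL points of VEGFA lay within the range of the other stages before scaling and above them after it.

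VEGFA, the growth factor that drives most sprouting of blood vessels (gene 100860957, chromosome 23, 31541137 to 31557206, minus strand), was among the more highly expressed members. It was at 6.68, 8.51 and 7.18 FPKM in the LL libraries, at 6.20, 9.36 and 10.95 in DP and at 8.11, 10.59 and 12.0 in LG. The deposited values of the 3 stages overlapped. After scaling, the means were 13.6 ± 1.77 (SD, n = 3) in LL, 6.05 ± 1.82 for DP and 8.16 ± 1.24 for LG, and every LL library lay above every other. VEGFA fell by 1.07 (SE 0.20, adjusted p = 0.0019) in DP against LL, a 2.24-fold lower scaled mean, but without scaling the change was 0.19 in the other direction. The log2 fold change in LG against LL was -0.67 (adjusted p = 0.022) with scaling and 0.40 without. The call in DP against LL was lost without DP replicate 1, where the change was -0.84, with upper-quartile scaling (-0.90) and with quantile normalization (-0.98). Of the 10 luminal epithelial markers, 1 was called lower in DP than in LL, ELF5 (-4.19), a transcription factor of milk-secreting cells, and 1 higher, FOXA1 (1.24). Over all genes 8.79% were called lower in that comparison and 13.8% higher. FOXA1 passed the filter through no LL library (0.097 ± 0.042 FPKM), which favoured a higher value in DP. The scaled sum of the 10 given above was lower in every DP library than in every LL library, whereas the deposited sums overlapped (557 to 657 FPKM in LL and 591 to 990.2 in DP). Without ELF5 the scaled sums overlapped too, at 446 to 513 in LL and 361 to 643 in DP. The part of these cells in the VEGFA values was not tested.

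VEGFC, the main ligand of FLT4 (gene 102189826, chromosome 27, 37426926 to 37513917, plus strand), was lower in FPKM than VEGFA in every library. It had 1.78, 2.19 and 2.12 FPKM in LL libraries, 3.49, 3.78 and 3.49 in DP libraries and 2.77, 2.27 and 2.55 in LG libraries. The order of LL and DP depended on the scaling, since LL was lowest in FPKM and highest in scaled FPKM. VEGFC fell in DP against LL (log2 fold change -0.44, SE 0.11, adjusted p = 0.0066) with scaling, and its change was 0.60 without it. It fell in LG against LL (-0.63, SE 0.11, adjusted p = 0.0013), with 0.22 in the other direction without scaling. In LG against DP it did not pass the test (-0.19, adjusted p = 0.205).

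FLT4, the receptor of VEGFC, had the largest change of the 10 genes and did not depend on the scaling for its direction in DP. The gene (102180480) lies on chromosome 7 from 108171449 to 108212626 on the minus strand. FLT4 was listed at 0 in LL replicate 1 and stood at 0.20 and 0.11 FPKM in the other LL libraries. In DP it reached 2.58, 4.40 and 3.14 FPKM, and in LG it was at 0.29, 0.57 and 0.43. Every DP library lay above every LL and LG library. FLT4 rose in DP against LL by 1.48 (SE 0.18, adjusted p = 1.33e-04), with a scaled mean 12.7 times as high as one that lay close to 0. Its change in LG against DP was -1.28 (SE 0.18, adjusted p = 7.06e-04). Over all alternatives the change was 1.12 to 3.32 in DP against LL and -2.43 to -1.10 in LG against DP. The scaled values of LG and LL overlapped, and FLT4 did not pass the test (0.19, 95% CI -0.21 to 0.60, adjusted p = 0.395). FLT4 passed the filter through the DP libraries and LG replicate 2, so a difference in favour of DP was built into its entry.

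The 7 lymphatic endothelial markers listed beside FLT4 did not move as 1 group. Of the 6 tested, 2 were called higher in DP against LL, beside 13.8% of all genes, namely RELN (1.59) and PDPN (1.55), a membrane glycoprotein of lymphatic endothelium that other cells of the gland also make. RELN was at 0.107 ± 0.012 FPKM in LL and 0.35 ± 0.48 in LG. Like FLT4 it passed the filter mainly through DP, so a difference in favour of DP was built into its entry. PROX1, the transcription factor that sets lymphatic identity, was called lower (-1.15), beside 8.79% of all genes. It had 2.32 ± 0.30 FPKM in LL and 1.97 ± 0.40 in DP. The 2 called lower in LG against LL, beside 6.61% of all genes, were LYVE1 (-1.50), a hyaluronan receptor, and MMRN1 (-1.40). In LG against DP 5 of 6 were called lower, beside 6.88% of all genes, led by LYVE1 (-2.31), MMRN1 (-1.82) and PDPN (-1.61). The median of the list was 0.84, -0.79 and -1.56 in the 3 comparisons in that order. Its summed level was 21.4 to 32.0 scaled FPKM in LL libraries, 28.9 to 75.7 in DP libraries and 10.7 to 11.9 in LG libraries, and none of the 7 was at 0 in every library. The deposited sums of LL (11.9 to 15.9 FPKM) and LG (12.8 to 14.7 FPKM) overlapped. The part of lymphatic cell content in the FLT4 values was not tested.

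FLT1, the receptor that binds VEGFA tightly and is known to act largely as a decoy (gene 100860837, chromosome 12, 54897721 to 55105201, minus strand), was low throughout. It was at 1.14, 1.52 and 1.55 FPKM in LL libraries, at 2.2, 2.48 and 3.84 in DP libraries and at 1.37, 1.23 and 2.01 in LG libraries. FLT1 did not pass the test in DP against LL (-0.28, adjusted p = 0.164), and this value was 0.66 without scaling. It fell in LG against LL (-0.67, SE 0.16, adjusted p = 0.0077) with scaling, while its change was 0.07 without it. In LG against DP the change was -0.39 (adjusted p = 0.094).

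KDR, the main signalling receptor for VEGFA (gene 100860836, chromosome 6, 71115093 to 71162022, minus strand), went the other way. It was at 3.96, 3.28 and 3.86 FPKM in LL libraries, at 16.99, 10.96 and 11.66 in DP libraries and at 13.19, 14.55 and 15.34 in LG libraries. Every LG library was above every LL library in FPKM and in scaled FPKM. KDR rose in LG against LL by 0.70 (SE 0.16, adjusted p = 0.0056), a scaled mean 1.70 times as high. The change was 0.35 in DP against LL (95% CI -0.006 to 0.71, adjusted p = 0.085) and 0.35 in LG against DP (adjusted p = 0.120), and neither passed the test. Scaled KDR values in LG had the smallest relative spread of any member in any stage, with a coefficient of variation of 3.66%.

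ANGPT1, the ligand that activates TEK (gene 102189773, chromosome 14, 24886975 to 25192742, minus strand), was low in LL. It had 0.19, 0.30 and 0.22 FPKM in LL libraries, 2.89, 0.90 and 1.21 in DP libraries and 1.71, 2.68 and 2.24 in LG libraries. No DP or LG library overlapped LL. ANGPT1 rose in LG against LL by 0.95 (SE 0.21, adjusted p = 0.0046), just under the size needed for a call. With a pseudocount of 0.1 in place of 1 its change in LG against LL was 1.82, and it was called. With quantile normalization the same change was 0.46 and did not pass the test (adjusted p = 0.189). In DP against LL the change was 0.52 (adjusted p = 0.055), and with quantile normalization it was -0.15. DP replicate 1 stood apart from the other DP libraries, and the coefficient of variation of the scaled values in DP was 60.6%.

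ANGPT2, the second ligand of TEK, known for opposing ANGPT1 in many settings (gene 102186656, chromosome 27, 39009746 to 39066188, plus strand), was highest in DP. It stood at 1.03, 1.69 and 1.08 FPKM in LL libraries, at 6.95, 8.56 and 7.35 in DP libraries and at 3.42, 4.29 and 5.86 in LG libraries. The stages did not overlap in FPKM, but the scaled values of LG and LL did. ANGPT2 rose in DP against LL by 0.92 (SE 0.18, adjusted p = 0.0020), a 2.26-fold higher scaled mean, and in LG against LL by 0.48 (adjusted p = 0.046). The rise in LG against LL did not pass the test under several alternatives. Among them were quantile normalization (adjusted p = 0.0515) and leaving out LL replicate 1 (0.130), LL replicate 3 (0.166) or LG replicate 3 (0.150). The change in LG against DP was -0.44 (adjusted p = 0.083). The change in DP against LL passed the size for a call with upper-quartile scaling (1.08), with a pseudocount of 0.1 (1.17) and without LL replicate 2 (1.08). ANGPT2 lies wholly within MCPH1 on the other strand, over 56443 bases, and MCPH1 had 0.14 to 0.26 FPKM in LL libraries, 2.97 to 3.58 in DP libraries and 3.04 to 4.64 in LG libraries. The library kit did not mark strand, so reads of the pair cannot be told apart where they overlap in exons.

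TEK, the receptor of both angiopoietins (gene 102169100, chromosome 8, 17003553 to 17103247, minus strand), was highest in DP. It had 1.88, 1.75 and 2.58 FPKM in LL libraries, 7.44, 8.58 and 12.47 in DP libraries and 3.61, 2.05 and 2.76 in LG libraries. DP lay above both other stages in every library, before and after scaling. TEK rose in DP against LL by 0.64 (SE 0.21, adjusted p = 0.026), and its change in LG against DP was -1.19 (SE 0.21, adjusted p = 0.0022), a 2.88-fold lower scaled mean. Without DP replicate 3 the latter was -0.98 and was no longer called. TEK fell by 0.55 in LG against LL (adjusted p = 0.0496) with scaling, and without scaling the change was 0.30. This fall did not pass the test under several alternatives, among them quantile normalization (adjusted p = 0.093), upper-quartile scaling (0.071) and leaving out LG replicate 2 (0.167). The rise of TEK in DP against LL did not pass without LL replicate 1 (0.061), LL replicate 2 (0.096) or DP replicate 3 (0.077). A gene on the other strand, LOC106502388, overlaps TEK by 848 bases and had at most 0.61 FPKM.

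**Figure D2:**
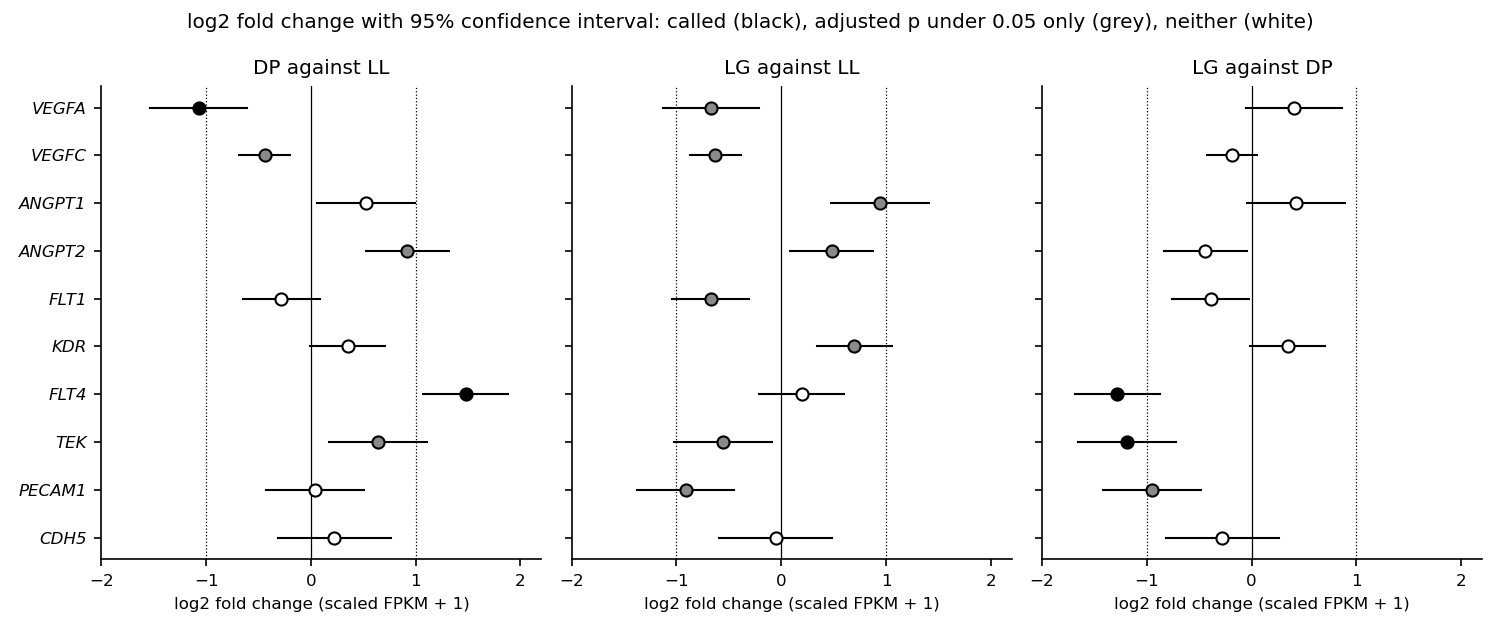
Log2 fold change of each gene in the 3 comparisons (horizontal axis, on scaled FPKM + 1) with its 95% confidence interval, in black where the gene was called, in grey where only the adjusted p was below 0.05 and in white otherwise. Dotted lines mark a log2 fold change of 1 in either direction, which FLT4 passes upward in DP against LL (1.48) and downward in LG against DP (-1.28), and TEK downward in LG against DP (-1.19).

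PECAM1 and CDH5, the junction proteins shared by nearly all endothelial cells, gave different pictures. PECAM1 (gene 102179808, chromosome 19, 48136219 to 48202952, minus strand) was the highest member in every library. It was at 33.8, 33.4 and 51.1 FPKM in LL libraries, at 91.7, 114 and 113 in DP libraries and at 34.1, 50.4 and 56.1 in LG libraries. It fell in LG against LL (-0.91, SE 0.21, adjusted p = 0.0055) with scaling, with 0.24 in the other direction without it, and in LG against DP (-0.95, SE 0.21, adjusted p = 0.0070) under either. Its change in DP against LL depended on the scaling. It was 0.04 (adjusted p = 0.889) with scaling, 0.75 (adjusted p = 0.015) with quantile normalization and 1.43 without scaling, where it was called. The PECAM1 row cannot be taken as a separate measurement, because it followed the neighbouring row LOC102179516, a transcribed pseudogene in the RefSeq annotation, on a line of slope 0.998 that left at most 0.407% of the range, with PECAM1 lower by 1.5 to 2 FPKM in every library.

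CDH5, VE-cadherin (gene 102174054, chromosome 18, 35395280 to 35436633, plus strand), passed the test in no comparison. It was at 4.55, 4.65 and 4.09 FPKM in LL libraries, at 15.53, 9.16 and 19.17 in DP libraries and at 7.32, 10.02 and 12.07 in LG libraries. The scaled values of all stages overlapped, with means of 8.10 ± 1.22 in LL libraries, 9.95 ± 3.49 in DP libraries and 7.81 ± 1.56 in LG libraries. The log2 fold change was 0.22 (95% CI -0.32 to 0.76) in DP against LL, -0.05 (95% CI -0.59 to 0.49) in LG against LL and -0.28 (95% CI -0.82 to 0.26) in LG against DP. The sign of the value in LG against LL turned without scaling (0.97).

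Plain ratios between 2 genes of the same library do not depend on scaling between libraries. On log2, 0.1 was added to each deposited FPKM, so the log2 ratios of genes near 0 still depend on the level of a library. The log2 ratios were compared by exact two-sided permutation tests over libraries, in which 3 against 3 cannot give a p below 0.1. None of the 9 tests could therefore pass 0.05, with or without adjustment. The ratio of FLT1 to KDR was 0.384 ± 0.089 (SD, n = 3, plain ratio of FPKM) in LL libraries, 0.228 ± 0.0999 in DP libraries and 0.107 ± 0.023 in LG libraries. On the log2 scale LG lay below LL by -1.83 without overlap (exact p = 0.1), while DP overlapped both. FLT1 was lower in FPKM than KDR in every library.

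The ratio of the angiopoietins, ANGPT2 to ANGPT1, was 5.42, 5.63 and 4.91 in LL libraries, 2.41, 9.51 and 6.07 in DP libraries and 2, 1.6 and 2.62 in LG libraries. LG was lower than LL by -1.01 on the log2 scale without overlap (exact p = 0.1). DP spread beyond the LL range on both sides and overlapped LG only through DP replicate 1, its lowest. The value in LG against LL rests on LL levels of ANGPT1 of 0.30 FPKM or less, and with a pseudocount of 1 it was -0.09. The ratio of VEGFC to VEGFA was 0.273 ± 0.020 in LL libraries, 0.429 ± 0.124 in DP libraries and 0.256 ± 0.074 in LG libraries, and DP lay above LL by 0.59 on the log2 scale without overlap (exact p = 0.1).

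**Figure D3:**
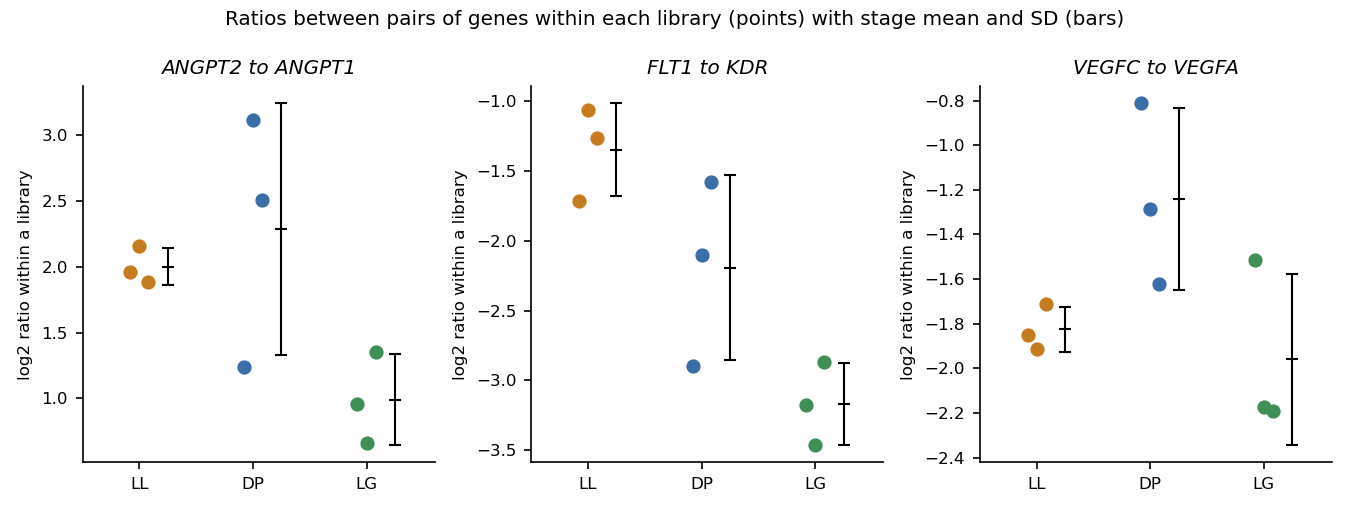
Log2 ratio of 2 genes within each library (vertical axis, 0.1 added to each FPKM) for LL, DP and LG, with points for libraries and bars for stage mean and SD (n = 3). The FLT1 to KDR ratio of every LG library lies below that of every LL library, and the DP points of the ANGPT2 to ANGPT1 ratio are spread from 1.24 to 3.11.

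Of the 21 blood endothelial markers tested, 3 were called higher in DP against LL and 0 lower by limma, beside 13.8% and 8.79% of all genes, so the share called higher was near the background. By adjusted p alone 11 rose and 1 fell, beside 28.2% and 28.6%, and the 1 that fell had a higher deposited mean in DP than in LL. The leading genes were SOX18 (1.49), an endothelial transcription factor, CD34 (1.26), a sialomucin of capillaries and of stromal cells, and ECSCR (1.24). MMRN2 (-1.02) was the 1 gene called lower in LG against LL, beside 6.61% of all genes. By adjusted p alone 3 rose and 9 fell there with scaling, beside 25.6% and 24.6%. Of the 9, 8 had a higher deposited mean in LG than in LL. In LG against DP 8 were called lower, beside 6.88% of all genes, led by CLDN5 (-1.96), a tight-junction protein, ECSCR (-1.93) and MMRN2 (-1.72). There 13 fell by adjusted p alone, beside 16.4% of all genes. Median changes were 0.62, -0.34 and -0.67, and the summed level was 122 to 151 scaled FPKM in LL libraries, 179.6 to 298 in DP libraries and 75.9 to 106 in LG libraries. The deposited sums were 60.6 to 91.3 FPKM for LL, 274 to 429 for DP and 90.8 to 132 for LG, so LG lay below LL with scaling and mostly above it, with ranges that touched, without.

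The members were therefore also set against the mean log2 FPKM of these 21 genes in the same library, for the 10 genes in 3 comparisons, which uses no scaling and again allows no p below 0.1. As with the ratios, 0.1 was added to each FPKM, so values of genes near 0 still depend on the level of a library. VEGFA was lower relative to them in DP than in LL by -1.75 (exact p = 0.1) and higher in LG than in DP by 1.31 (exact p = 0.1). VEGFC was lower in DP than in LL by -1.17 and higher in LG than in DP by 0.59, without overlap (exact p = 0.1 for each), and overlapped between LG and LL. FLT1 lay below LL in both other stages, by -1.02 in DP and -0.78 in LG. The FLT1 value in LG against LL was -0.50 with a pseudocount of 1, and also with the median of the 21 genes in place of their mean. KDR was higher in LG than in LL by 1.05 and than in DP by 1.23, with no overlap (exact p = 0.1 for each), and did not separate DP from LL (-0.18, exact p = 0.7).

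FLT4 was higher relative to the same genes in DP than in LL by 2.24 and lower in LG than in DP by -1.63, without overlap (exact p = 0.1 for each). With a pseudocount of 1 these values were 0.41 and -0.61. ANGPT1 was higher in LG than in LL by 1.89 and than in DP by 1.61, and ANGPT2 was higher in LG than in LL by 0.88, all without overlap. The ANGPT1 value in LG against LL was 0.80 with a pseudocount of 1. TEK overlapped between stages in all 3 comparisons (0.17 in DP against LL, exact p = 0.3, and -0.64 in LG against DP, exact p = 0.2). PECAM1 was lower in LG than in LL by -0.63 without overlap (exact p = 0.1) and overlapped in the other comparisons. The PECAM1 value in LG against LL was -0.32 with a pseudocount of 1. CDH5 overlapped between LL and each other stage and was higher in LG than in DP by 0.55 without overlap (exact p = 0.1).

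**Figure D4:**
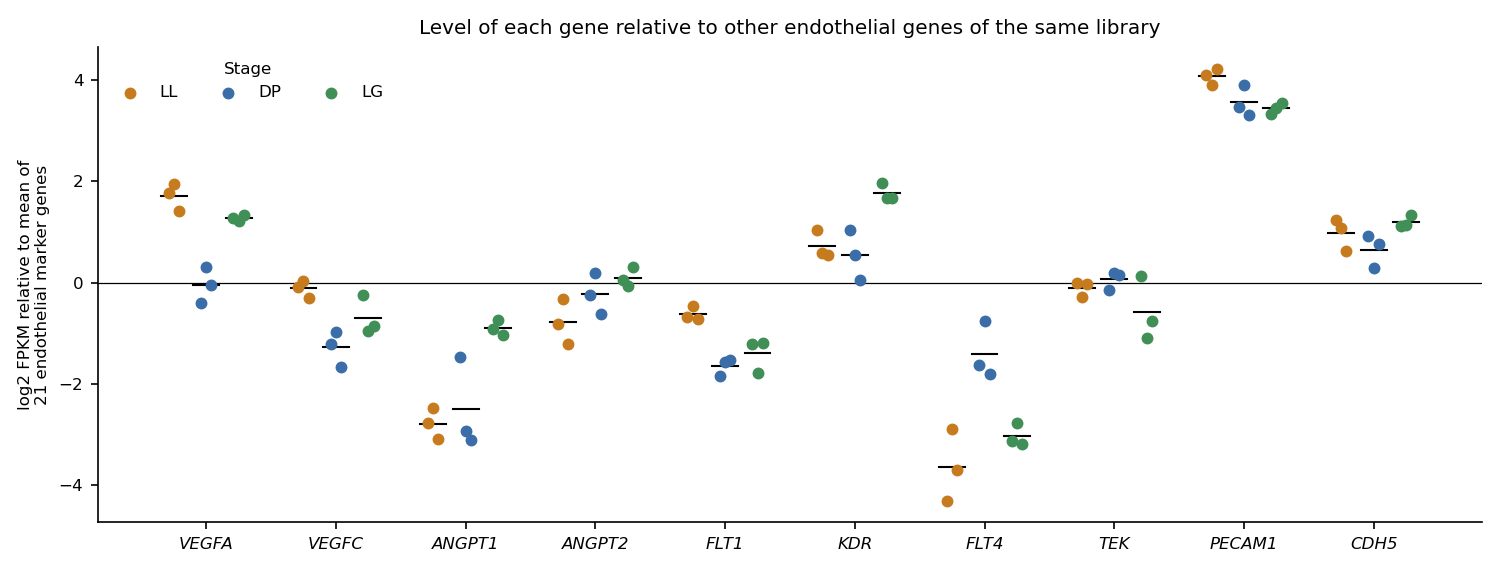
Log2 FPKM of each gene relative to the mean of 21 blood endothelial marker genes of the same library (vertical axis), with points for libraries, colours for LL, DP and LG, and bars for stage means (n = 3). KDR lies higher in all LG libraries than in all others, VEGFA lies lowest in DP, and TEK overlaps between the stages.

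Other genes of the VEGF and angiopoietin pathways were taken from a list of 26, of which 25 were tested. In DP against LL 4 were called higher and 2 lower, shares near the 13.8% and 8.79% of all genes. By adjusted p alone 9 rose and 3 fell, beside 28.2% and 28.6%, and the median was 0.47. DOK2 (2.15), an adaptor protein that binds activated TEK, went from 0.15 to 6.90 FPKM in the stage means, and SHC2 (2.14), an adaptor of KDR signalling, from 0.13 to 6.85. PTPRB (-1.72), the phosphatase that restrains TEK, fell from 16.1 to 12.0 FPKM. Among the remaining ligands and co-receptors, PGF, a ligand of FLT1, was also called (1.20), and NRP2, the co-receptor for VEGFC, rose by 1.00 without reaching a call.

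From LL to LG, 4 pathway genes were called higher and 3 lower, beside 10.7% and 6.61% of all genes. By adjusted p alone 7 rose and 7 fell, beside 25.6% and 24.6%, and the median was -0.20. Of the 7 that fell, 4 had a higher deposited mean in LG than in LL, none of them called. APLN (2.6), the apelin peptide of growing vessel tips, went from 0.12 to 7.98 FPKM, and VEGFD (2.22), another ligand of FLT4, from 0.17 to 6.36. PTPRB was lower by -2.43 and EPAS1 (-2.31), a hypoxia-inducible factor of endothelium, went from 35.8 to 16.3 FPKM. In LG against DP 2 were called higher, APLN (2.07) and VEGFD (1.63), and 4 lower, led by ARNT (-1.61), the partner of the hypoxia-inducible factors, beside 6.37% and 6.88% of all genes. By adjusted p alone 2 rose and 11 fell there, beside 18.4% and 16.4% of all genes, and the median was -0.68.

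Among 8 angiogenesis inhibitors, 3 were called higher and 1 lower in DP against LL, beside 13.8% and 8.79% of all genes. THBS2 (2.16), a matrix thrombospondin, and VASH1 (1.90), a vasohibin made by endothelium, were higher, and SEMA3A (-2.69), a semaphorin that competes at neuropilins, was lower. VASH1 (1.36) was called higher and SEMA3A (-2.88) lower in LG against LL, beside 10.7% and 6.61% of all genes. THBS2 (-2.53) and ADAMTS1 (-1.04) were called lower in LG against DP, beside 6.88% of all genes. The median changes of the list were 1.06, 0.05 and -0.68.

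Of 13 genes known to respond to low oxygen, 2 were called higher and 2 lower in each of the 3 comparisons, with medians of 0.30, 0.19 and -0.22. The shares called over all genes were 13.8% and 8.79% in DP against LL, 10.7% and 6.61% in LG against LL, and 6.37% and 6.88% in LG against DP, and the list's counts in DP against LL lay near them. ADM, adrenomedullin, was lower in LG than in LL (-2.66) and than in DP (-2.39), while ALDOA, an enzyme of glycolysis, was higher (1.69 and 1.34). In DP against LL ANKRD37 (1.31) and NDRG1 (1.23) were called higher. ANKRD37 was at 0.107 ± 0.091 FPKM in LL and 0.317 ± 0.074 in LG. It passed the filter only through DP, so a difference in favour of DP was built into its entry. BNIP3 (-1.24) was 1 of the 2 called lower, and both had a higher deposited mean in DP than in LL (26.7 against 23.1 FPKM for BNIP3).

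Some markers of other cell types were also higher in DP than in LL, beside FLT4, TEK and ANGPT2. Of 7 fibroblast markers, 6 were called higher in DP against LL, beside 13.8% of all genes, with a median of 1.98 and summed levels of 223 to 344.5 scaled FPKM in LL libraries, 531 to 2514 in DP libraries and 525 to 957 in LG libraries, led by COL1A1 (2.37). Of 7 leukocyte markers tested out of 9, 4 were called higher, beside the same 13.8%, led by PTPRC (1.58), the pan-leukocyte antigen. Their median was 1.13, with sums of 35.1 to 40.5, 76.3 to 128 and 29.0 to 38.9. Of 12 pericyte and smooth muscle markers, 4 were called higher, led by NOTCH3 (1.87), beside the same 13.8%. Their sums were 189 to 245.5, 183 to 657 and 155 to 221, so LL and DP overlapped. Of the 12 changes 9 lay above 0. ACTA2 (-6.7e-04), MYH11 (-0.24) and CNN1 (-0.20) lay below 0 and did not pass the test. None of these markers was at 0 in every library. Their part in the DP values of the 10 genes was not tested.

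In LG against DP the same lists had 3 fibroblast, 4 leukocyte and 4 pericyte and smooth muscle markers called lower and 0 higher by limma. Over all genes 6.88% were called lower there and 6.37% higher. In LG against LL the fibroblast list had 2 called higher and 1 lower, the leukocyte list 2 lower and the pericyte list 1 higher. The shares over all genes in that comparison were 10.7% called higher and 6.61% lower. Of the platelet markers, which share PECAM1 with endothelium, only 2 were tested, ITGA2B and GP1BB, neither was called in any comparison, and GP9 was at 0 in every library. The 4 red cell markers in the table summed to at most 0.41 FPKM in any library, and ALAS2 was at 0 in all 9. Of 3 adipocyte markers tested, 1 was called, LIPE, lower in DP (-1.49) and LG (-1.14) than in LL. Over all genes 8.79% and 6.61% were called lower in these comparisons. ADIPOQ went the other way in DP against LL (1.46, adjusted p = 0.077) without passing the test, and CIDEC was at -0.21 (adjusted p = 0.415). ADIPOQ had 0.17 ± 0.08 FPKM in LL and 7.28 ± 10.4 in DP, and it passed the filter only through DP. Of 4 basal epithelial markers tested, TP63 was called higher in DP (1.47) and LG (1.60) than in LL, and OXTR, the oxytocin receptor, higher in LG than in LL (2.11) and than in DP (1.41). KRT5 and KRT14 followed a neighbouring row and neither was called in DP against LL (0.95 and -0.91). The deposited mean of KRT14 was higher in DP (50.5 FPKM) than in LL (30.1).

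The genes whose profile over the 9 libraries was nearest to each member were found by the root-mean-square difference of log2(scaled FPKM + 1) after centring. For FLT4 they were HERC6 (0.14), CTTNBP2 (0.17) and PLCD3 (0.19), while the SD of the FLT4 profile itself was 0.68. For TEK they were SRXN1 (0.14), IL13RA1 and HRCT1, for KDR PARP1 (0.10), MIS12 and PRR14L, and for VEGFA ARF4 (0.15), HYPK and CFAP36. The nearest genes were EBI3, MTX3 and POLR3G for VEGFC, GNG12, SERINC1 and PITPNA for FLT1, DPY19L3, GSTK1 and WDR6 for ANGPT1, NF2, CEP295 and SEPT2 for ANGPT2, FNIP2, ITPKC and PRNP for PECAM1, and PLOD1, RCN2 and VAV2 for CDH5. None of these neighbours was another of the 10 genes.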

How the data were processed

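RNA of goat mammary tissue was extracted with TRIzol, libraries were made with a TruSeq kit that does not mark strand, and the authors sequenced them on a HiSeq instrument, trimmed reads with Trimmomatic and aligned them with HISAT2. The authors deposited 1 FPKM value per gene and library. No unit stands in the table. FPKM was assumed, since the paper uses it and the values have decimals and unequal sums per library. The paper names StringTie for quantification and the submitters' processing notes name HTSeq. The table gives no reads per gene, so depth behind a value is unknown and no counting error was computed. Of the gene identifiers, 23465 matched the RefSeq table of assembly ARS1.2, all with the same start and end, so coordinates are those of the deposited table.

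Values were divided by median-ratio factors from 15905 genes, then transformed to log2 after adding 1. A gene needed 0.5 FPKM or more in 3 or more libraries, and the 14701 that met this were fitted with limma 3.58.1 in R 4.3.3 (mean-variance trend, all 9 libraries, no covariates). Ratios and figures were made in Python 3.11.15. On simulated data with 14617 genes, 200 genes of higher level were changed, with a median recovered size of 1.99 on log2. DP against LL called 176 of these and 8 unchanged genes. Smaller changes and genes of low level were not simulated, so these counts do not tell how often changes like those of most members would be called. Named genes are every member, per list and comparison at most the 3 largest log2 fold changes among those called or, where none was called, the largest, and the 3 nearest profiles. PGF, NRP2, ADIPOQ, CIDEC, ACTA2, MYH11, CNN1 and, in LG against LL, VEGFD were named after their values were seen. The members and lists were chosen with earlier results of these data known. Alternatives covered scaling, pseudocount, filter, libraries, trend, call rule and a replicate block, and, added after seeing the data, leaving out genes whose values follow a neighbour's (620 genes). The p-values measure the spread among 3 goats per stage.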

Additional observations from a re-analysis of the deposited data

How the results depend on the processing

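The number of members called in DP against LL, 2, was 7 with no scaling, 1 with quantile normalization, 4 with a pseudocount of 0.1, 5 by adjusted p alone and 1 to 3 when 1 library was left out (1 without DP replicate 1). In LG against LL, 0 became 3 with no scaling, 2 with a pseudocount of 0.1, 8 by adjusted p alone and 0 to 2 with a library left out (2 without LL replicate 2, 1 without LG replicate 1 or 3). In LG against DP it was 1 to 3 with a library left out (1 without DP replicate 3). With no scaling, the sign turned in DP against LL for VEGFA (0.192), VEGFC (0.600) and FLT1 (0.657), and in LG against LL for VEGFA (0.400), VEGFC (0.220), FLT1 (0.0701), TEK (0.300), PECAM1 (0.243) and CDH5 (0.969). It also turned with quantile normalization for ANGPT1 in DP against LL (-0.145) and FLT4 in LG against LL (-0.0370), and with upper-quartile scaling for CDH5 in LG against LL (0.00216), none of them called. With 1 library left out, PECAM1 in DP against LL ranged from -0.0907 to 0.168 and CDH5 in LG against LL from -0.178 to 0.0915. The log2 ANGPT2 to ANGPT1 ratio in LG against LL was -0.0926 with a pseudocount of 1. The cause of these changes was not tested. Of 567 alternative log2 fold changes of members, 520 kept their direction and side of the threshold. Of 60 alternative values against the endothelial genes, 27 moved by more than the spread between replicates. These alternatives were a pseudocount of 1 and the median of the 21 genes in place of their mean. With the median, the values in LG against DP went from 0.55 to 1.04 for CDH5, from 0.59 to 1.09 for VEGFC and from -0.64 to -0.14 for TEK.

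Libraries with the same number in different stages correlated at -0.106 to 0.201 in their deviations from the stage means (9 pairs, median 0.059). Libraries with different numbers correlated at -0.223 to 0.072 (18 pairs, median -0.003). The ranges overlapped, and whether the numbers mark anything shared between stages was not tested. With the replicate block the members called were 2, 0 and 2 in DP against LL, LG against LL and LG against DP. Leaving out genes that follow a neighbour kept the counts at 2, 0 and 2. Depth per gene is unknown, so no counting error can be given for the low values of FLT4 and ANGPT1 in LL.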
